A study of Schmidtea mediterranea with 2 samples.

Results

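The gene described here is mat2a (SMED30021445), 1 of 22150 genes in the table of Syrah-processed reads of both sequencing runs, and it was chosen by name as a marker of the planarian intestine, not by its values. The data came from fragments of the flatworm Schmidtea mediterranea, which were embedded in OCT, fresh frozen and sectioned onto 1 Slide-seqV2 puck, a surface covered with barcoded beads that capture polyA RNA from the tissue lying on them. The single library was sequenced in 2 runs, and 4 tables of unique molecular identifiers (UMIs) were made: original and Syrah-processed reads of the first run, and the same for both runs. Syrah is a tool that corrects the bead barcode read. No strain, age, sex or treatment is given by the labels, and no group of animals was compared. Because the 4 tables share a library and most of their reads, they are 4 readings of 1 sample, not replicates. Intervals are at 95% and cover counting error only.

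The mat2a gene encodes methionine adenosyltransferase, the enzyme that makes S-adenosylmethionine, the main methyl donor of the cell, from methionine and ATP. The planarian intestine is a branched tube that reaches through the body and, in an animal with no blood vessels, carries digested food to the other tissues. It is lined by absorptive phagocytes and secretory goblet cells. Stem cells of planarians, called neoblasts and marked by piwi-1, lie in the tissue between the branches.

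In all barcodes together, mat2a had 799 UMIs in the original table of the first run and 1011 after Syrah processing, and 861 and 1077 with both runs. The tables held from 2461559 to 3364828 UMIs of all genes, and a bead with at least 50 UMIs, the minimum used in the study, held a median of 180 to 196. On such beads the level of mat2a was 3.26 UMIs per 10000 UMIs (3.06 to 3.46, exact Poisson interval) in the Syrah-processed table of both runs. It was 3.24 in the original table of both runs, and 3.26 and 3.30 in the original and Syrah-processed tables of the first run, so the 4 levels lay within each other's counting error. A mat2a UMI was found on 801 of 8789 beads, or 9.11% (8.52 to 9.73, exact binomial interval). In the original table of both runs the share was 8.56%, on 623 of 7275 beads. All further values are from the Syrah-processed table of both runs unless another is named.

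Most positive beads held a single mat2a molecule. Of the 801 positive beads, 618 had 1 UMI, 146 had 2, 27 had 3, 9 had 4 and 1 had 5, the last on a bead with 3267 UMIs in all. The 183 beads with 2 or more made up 22.8% of positive beads and held 40.1% of the mat2a UMIs, and the 10 highest beads held 3.97%, so no small set of beads set the level. Given 1 mat2a UMI on a bead, another UMI of that bead was mat2a 2.17 times as often as over all UMIs weighted alike, from 291 pairs on the same bead. The same ratio was 2.04 to 2.17 in the other tables. It was not computed for other genes, so whether it is particular to mat2a was not tested.

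Detection rose with bead depth, while the level per UMI changed less. A mat2a UMI was found on 1.52% of beads with 50 to 99 UMIs (36 of 2374), on 8.76% of beads with 200 to 399 UMIs (163 of 1860) and on 38.1% of beads with 1600 UMIs or more (85 of 223). Positive beads had a median of 626 UMIs and negative beads 174, so most negative beads were too shallow to show 1 molecule at this level. Per 10000 UMIs the level was 2.30 (1.63 to 3.14) in the shallowest of the 6 depth classes and 2.48 (1.94 to 3.12) in the next. It was between 3.39 and 3.80 in the 3 classes from 200 to 1599 UMIs. In the deepest beads it was 2.65 (2.22 to 3.13), below the preceding 3 classes, although its interval met that of beads with 400 to 799 UMIs (3.01 to 3.81). Had every UMI carried the mean level, 51.3% of the deepest beads would have held mat2a against the 38.1% counted, while at 200 to 399 UMIs the 2 values were 8.80% and 8.76%. Beads under 50 UMIs, 24729 in number, held 45 mat2a UMIs in all, a level of 2.27 per 10000 UMIs (1.65 to 3.03).

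**Figure D1:**
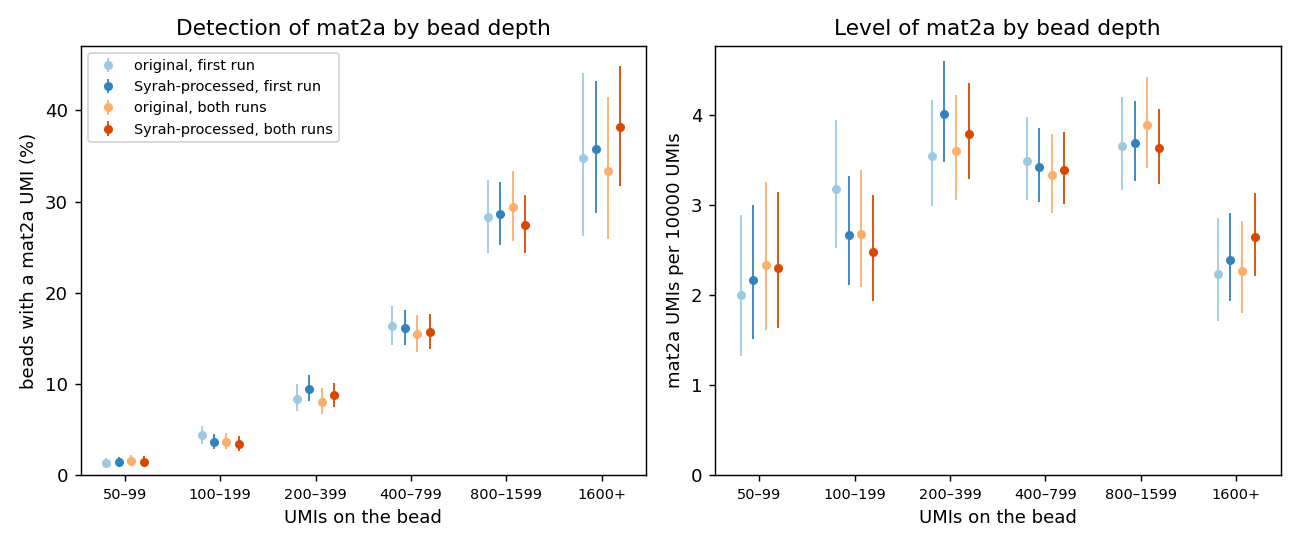
Share of beads with a mat2a UMI in percent (left) and mat2a UMIs per 10000 UMIs (right) against UMIs on the bead, in the 4 tables; points are the values of 1 library and bars are exact 95% intervals for counting error. Detection climbs from 1.52% to 38.1% in the Syrah-processed table of both runs, while the level stays between 2.30 and 3.80 with no steady rise.

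On the puck, mat2a lay in separate islands of tissue. Beads with at least 50 UMIs, linked where they lay within 40 units of each other and where at least 25% of the 50 nearest beads held 10 UMIs or more, formed 12 pieces of 200 beads or more (positions are in the units of the deposited coordinates, whose length is not stated). These pieces were drawn from total UMIs without use of mat2a. They held 909 mat2a UMIs, 88.1% of the gene's UMIs against 82.6% of the UMIs of all genes. The level within them was 3.47 per 10000 UMIs, and on the 3073 beads outside them it was 2.24 (1.86 to 2.67). Outside the pieces 3.64% of beads were positive, at a median of 107 UMIs per bead. Only 955 beads in all had under 25% of their nearest beads at 10 UMIs or more, so many outside beads lay in smaller groups of tissue. The level of 2.24 is therefore not a level off the tissue.

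**Figure D2:**
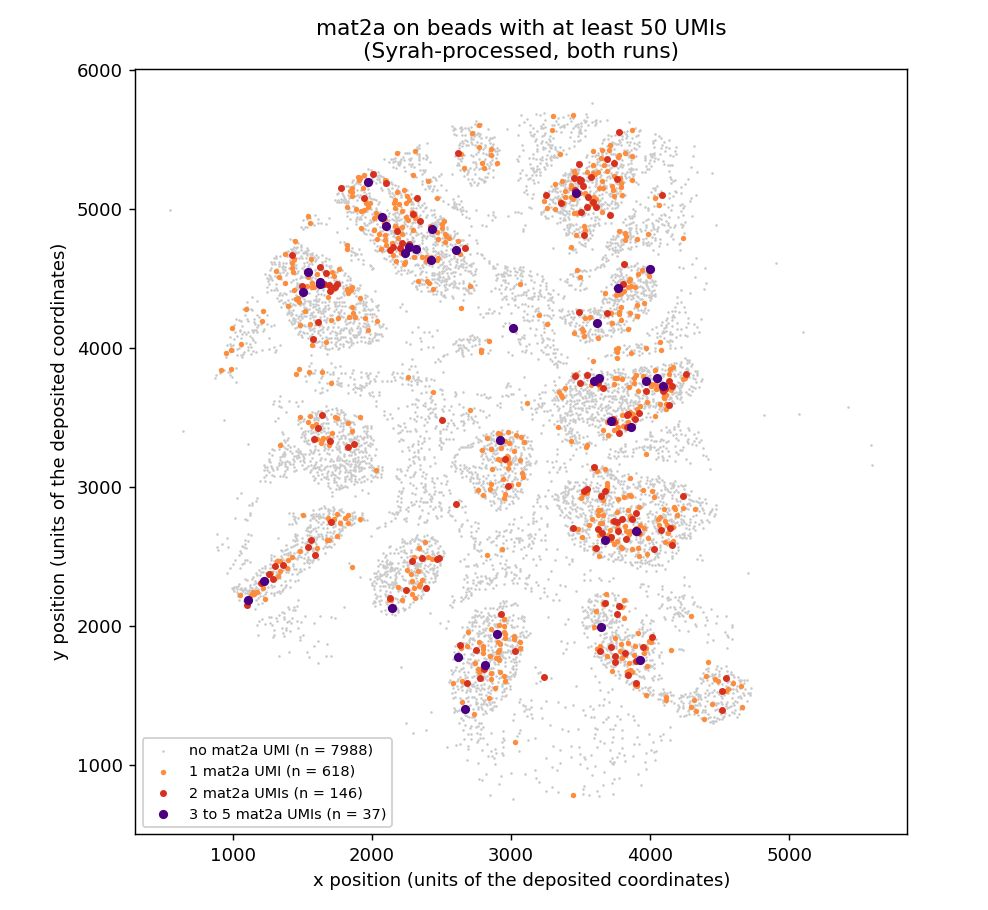
Position of each bead that passed the minimum of 50 UMIs, Syrah-processed, both runs (x and y in units of the deposited coordinates), grey without mat2a and coloured by its number of mat2a UMIs. The 801 positive beads lie mostly in the islands of dense beads and group within them, and the 37 beads with 3 to 5 UMIs are spread over many islands.

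All 12 pieces held mat2a, at levels that differed among them. The lowest levels were 1.87 per 10000 UMIs (1.31 to 2.59, from 36 mat2a UMIs) in piece 12 and 1.95 (1.32 to 2.79, from 30) in piece 6. The highest were 4.59 (3.74 to 5.57, from 102) in piece 5 and 4.29 (3.18 to 5.68, from 49) in piece 9. The intervals of 8 of the 12 pieces held the mean over all pieces, and those of pieces 12 and 6 did not overlap those of pieces 5 and 9. These pieces were picked as the lowest and highest by that same level, which favours such a gap. The spread of other genes between pieces was not measured. Piece 6 also had the lowest share of the listed intestine genes described below, 0.999% of its UMIs, against 1.27 to 2.21% in the other 11. Across the 12 pieces, which share 1 library, the level of mat2a and that share had a Spearman correlation of 0.46 and a Pearson correlation of 0.53. Both were lower in the other tables, at 0.33 to 0.42 (Spearman) and 0.46 to 0.51 (Pearson).

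Positive beads lay closer to each other than negative beads of the same depth lay to them. The median distance from a positive bead to the next positive bead was 34.3 units (quartiles 20.8 and 52.7), where joined beads of the puck are 15.1 units apart at the median. For negative beads weighted to the depth classes of the positive ones, the corresponding distance was 45.8 units. Another positive bead lay within 50 units of 583 positive beads, or 72.8% (69.6 to 75.8), against 56.2% of the depth-weighted negative beads. Both kinds had a like number of beads with at least 50 UMIs around them, 10.2 and 9.96 within 50 units. The depth of those neighbouring beads was not compared. Linking positive beads within 50 units gave 345 clumps, of which 218 were single beads and 37 held 5 beads or more. The latter held 42.7% of positive beads. The 5 largest clumps had 18 to 23 positive beads and 30 to 35 mat2a UMIs each, lay in pieces 3 (2 clumps), 5, 2 and 4, and stretched 148 to 297 units along either axis. In the original table of both runs, 65.5% of positive beads had another within 50 units against 50.7% of negative beads.

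To measure clumping with depth in both terms, the share of mat2a among the UMIs on other beads within 50 units was averaged over mat2a UMIs and divided by the same average over all UMIs. This neighbourhood ratio was 1.28, from 1187 pairs of mat2a UMIs on different beads, and 1.253, 1.30 and 1.24 in the original first-run, Syrah-processed first-run and original both-run tables. Clumping of this size was common among genes. Of 650 genes with at least 500 UMIs, 35.8% had a ratio around themselves at least 25% above 1 and 19.1% one of at least 1.5, and 33.4% had a higher ratio than mat2a. The median gene was at 1.13. Within the intestine list 11 of 13 genes had a higher ratio around themselves than mat2a, with a median of 1.43, and piwi-1 was at 1.497.

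The excess of mat2a around mat2a was short-ranged. The ratio was 1.31 at up to 25 units, 1.27 from 25 to 50 units and 1.18 from 50 to 100 units. Beyond that it was 1.05 from 100 to 200 units and 1.01 in both wider rings, out to 800 units. Within pieces the excess was smaller. When each piece was set against its own mean, the ratio within 50 units was 1.20, with 9 of 12 pieces above 1 and a range from 0.916 in piece 10 to 2.07 in piece 6. Leaving out each piece in turn gave values between 1.22 and 1.32 for the whole puck, so no single piece carried it.

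**Figure D3:**
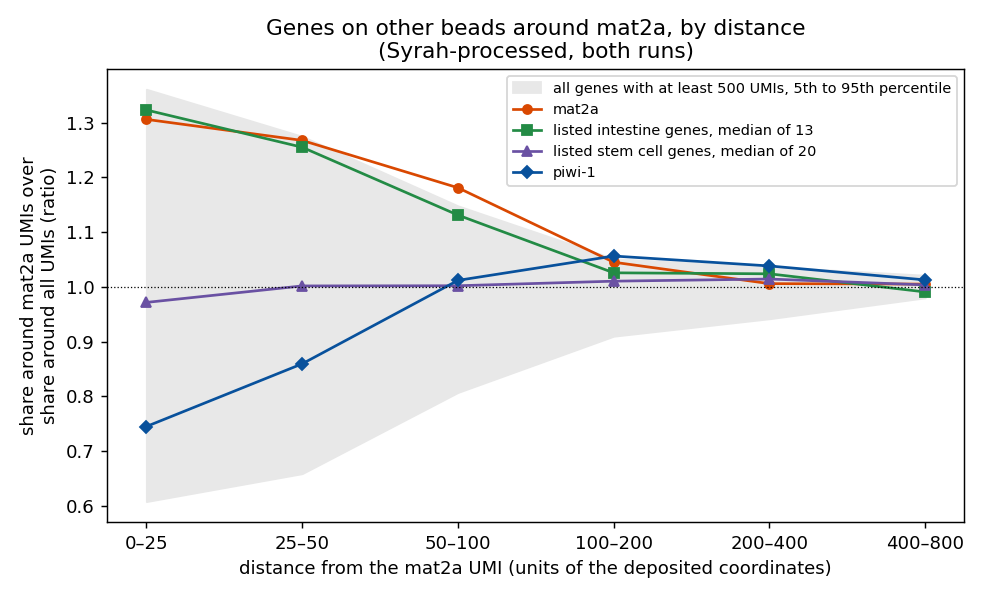
Ratio of a gene's share on other beads around mat2a UMIs to its share around all UMIs, against distance in units of the deposited coordinates (rings of unequal width), for mat2a, piwi-1, the medians of the listed intestine and stem cell genes, and the 5th to 95th percentile of all genes with at least 500 UMIs (grey). The ratios of mat2a and of the intestine median fall together from 1.31 and 1.32 at up to 25 units to 1.05 and 1.03 at 100 to 200 units, while piwi-1 starts at 0.745 and crosses 1.

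Other intestine genes surrounded mat2a. The study lists 14 further intestine markers, of which SMED30016196 is also on its stem cell list and is kept apart, which leaves 13. The study took its known markers from a single-cell atlas of planarians. The list labels these genes as differentially expressed, the study compared beads with and without mat2a in these same tables, and whether that comparison narrowed the list is not stated. The list is therefore not used as independent evidence that its genes lie with mat2a. The files and the list give these genes by identifier only. Around mat2a UMIs, all 13 had a ratio above 1 within 50 units, with a median of 1.27 and a range from 1.21 to 1.39. A ratio above 1 was common. The median of all genes with at least 500 UMIs was 1.03 at up to 25 units and 1.02 from 25 to 50 units. None of the 13 reached 1.5, as was true of all 649 other genes with at least 500 UMIs (0% called). At a ratio at least 25% above 1 there were 9 of 13, and 6 of the 9 listed genes with at least 500 UMIs, against 9.71% of the 649 genes. The highest were SMED30005670 at 1.39 and SMED30000013 at 1.38, and the lowest were SMED30001635 at 1.21 and SMED30018252 at 1.23. These 4 ratios lay close together, and with no replicate their order has no error to be read against. SMED30016196, the gene on both lists, was at 1.04.

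Since the study's comparison used the UMIs on mat2a-positive beads themselves, the ratio was also taken over neighbouring beads that held no mat2a. All 13 genes then had a ratio at least 25% above 1, with a median of 1.34 and a range from 1.252 to 1.46, and so did all 9 of those with at least 500 UMIs, against 14.6% of the 649 genes by the same measure. In the original table of both runs all 13 were above 1 and 11 were at least 25% above it, with a median of 1.31. Of 524 genes there, 14.1% were at least 25% above 1, and their median was 1.02. On the mat2a-positive beads themselves, the 13 ratios ran from 1.27 to 1.64 with a median of 1.46. The share of all genes at such ratios was not counted. Together the 13 genes made up 2.22% of the UMIs on positive beads and 1.54% on negative beads. These shares were not matched for depth, and the medians were 626 and 174 UMIs per bead. With 1, 2, 3 and 4 mat2a UMIs on the bead the share was 2.22, 2.15, 2.38 and 2.90%, the last from 9 beads. It was 1.96% on the 1 bead with 5, so there was no steady rise. Beads without mat2a around 4 of the 5 largest clumps held 1.999 to 2.26% of these genes, above the 1.68% over all beads, and those around the other, a clump of 22 positive beads in piece 3, held 1.26%.

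Of the 621 unlisted genes with at least 500 UMIs, 57 had a ratio around mat2a at least 25% above 1. The highest were SMED30006949 at 1.48 and SMED30029626 at 1.47, above every listed intestine gene, and their ratios were 1.42 to 1.49 in the other tables. The lowest were SMED30001879 at 0.367 and SMED30000295 at 0.409, which were also rare on mat2a-positive beads themselves, at 0.220 and 0.219. Neither the files nor the list name these 4 genes.

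Beads surrounded by intestine genes held more mat2a per UMI. The 7572 beads with at least 500 UMIs on neighbours within 50 units were put into quintiles by the share of the 13 listed intestine genes on those neighbours, the bead itself left out. From the lowest to the highest quintile, mat2a had 0.692, 2.33, 3.66, 4.72 and 4.85 UMIs per 10000 UMIs. The lowest quintile (0.490 to 0.9497, from 38 mat2a UMIs) stood below all others, and the top 2 overlapped. The share of positive beads went alongside, from 1.98% in the lowest to 16.0% in the highest quintile. Median depth was 211 and 274 UMIs in these 2 quintiles, and with beads thinned to 100 UMIs the expected shares of positive beads were 0.537% (1142 beads of at least 100 UMIs) and 4.88% (1265 beads). The level in the lowest quintile was also under the 2.24 measured on beads outside the tissue pieces, many of which lay in smaller groups of tissue.

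The highest quintile had 7.02 times the level of the lowest (4.999 to 10.1, exact conditional Poisson interval). With quintiles drawn within each piece the ratio was 6.50 (4.58 to 9.45), and without each piece in turn it was between 5.59 and 8.25. Taking only neighbouring beads without mat2a gave 4.97 (3.74 to 6.71). The ratio was 5.29 and 5.34 in the original tables of the first and of both runs, and there the restriction to neighbours without mat2a gave 5.501 and 6.41. In the Syrah-processed table of the first run the values were 6.88 and 5.20. Such gradients were not rare: 23.3% of the 621 unlisted genes had a ratio of at least 2, the median gene was at 0.932, and 45 genes, 7.25%, were at or above mat2a. When each listed intestine gene was treated the same way, with mat2a in its place in the list, the 13 ratios ran from 3.96 to 13.2, and 8 of them were above that of mat2a. By this measure mat2a lay within the range of its own list. The quintiles rest on that same list, so the gradient is not independent evidence that mat2a lies with these genes.

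**Figure D4:**
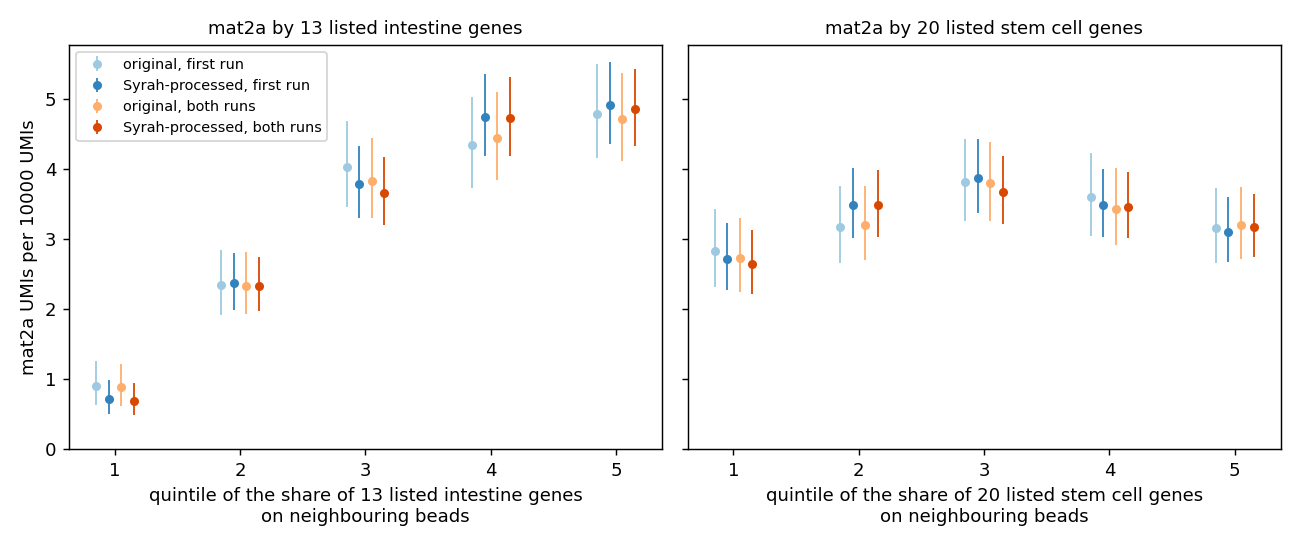
Level of mat2a in UMIs per 10000 UMIs in quintiles of beads ranked by the share of 13 listed intestine genes (left) or 20 listed stem cell genes (right) on neighbouring beads, in the 4 tables; bars are exact 95% Poisson intervals. Along the intestine genes the level climbs from 0.692 to 4.85 in the Syrah-processed table of both runs. Along the stem cell genes it is lowest in the lowest quintile, at 2.64, and highest in the middle one, at 3.67.

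The genes of the stem cell list lay on both sides of 1 around mat2a. Of the 20 listed stem cell genes besides piwi-1 and SMED30016196, 9 had a ratio above 1 within 50 units of mat2a UMIs and none was 25% above it, with a median of 0.996 and a range from 0.855 to 1.12. At up to 25 units their median was 0.972 against 1.03 for all genes with at least 500 UMIs. From 25 to 50 units the medians were 1.002 and 1.02. Across quintiles of their share on neighbouring beads, the level of mat2a was 2.64, 3.48, 3.67, 3.46 and 3.17 per 10000 UMIs. The highest over the lowest gave 1.20 (0.961 to 1.502), an interval that holds 1. The level was still not flat, as the interval of the lowest quintile (2.22 to 3.12) lay below that of the middle one (3.21 to 4.18). In the other 3 tables the lowest quintile also had the lowest level. For piwi-1, the gene of a PIWI protein used as the stem cell marker, the ratio around mat2a was 0.832 within 50 units and 0.745 within 25 units. Other genes reached lower ratios. The 5th percentile of all genes with at least 500 UMIs was 0.607 at up to 25 units. From 25 to 50 units it was 0.659, where piwi-1 was at 0.859. In all 12 pieces piwi-1 was below 1 around mat2a, with a median of 0.855, as was the case in 11 of 12 in each of the other 3 tables. Both genes were found on 169 beads, 21.1% of mat2a-positive beads against 25.9% of negative beads weighted to the same depths. Along the intestine quintiles piwi-1 ran opposite to mat2a, from 7.46 UMIs per 10000 UMIs in the lowest to 2.33 in the highest, a ratio of 0.311 (0.256 to 0.377). This ratio was also within the range of other genes, as the 5th percentile of the 621 unlisted genes was 0.189. A bead can lie under several cells or parts of cells, so neither a shared nor a separate bead shows which cells held the RNA.

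Tissue density around the bead was measured as the percentage of its 50 nearest beads with at least 10 UMIs. Only 2 beads were at 75% or more, with 0 mat2a UMIs, so the planned contrast of that class with beads under 25% gave a ratio of 0 with an interval up to 57.5 and says nothing about dense tissue. With classes chosen after the data were seen, the level was 3.50 per 10000 UMIs (3.16 to 3.86) at 50% and over and 2.005 (1.39 to 2.80, from 34 mat2a UMIs) under 25%, a ratio of 1.75 (1.23 to 2.56). Positive beads made up 11.96% and 3.25% of these classes. Depth went with density, at medians of 282 and 96 UMIs per bead. Thinned to 100 UMIs, with 425 and 500 shallower beads left out, the expected shares were 3.24% and 1.91%. The ratio was 1.05 (0.775 to 1.42) when barcodes 1 base apart and less than 10 units from each other were kept as separate beads, and the difference in level was then within counting error. In the original table of both runs the levels were 3.51 and 2.42 with density from the Syrah-processed table, and 3.25 and 2.87 with its own.

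**Figure D5:**
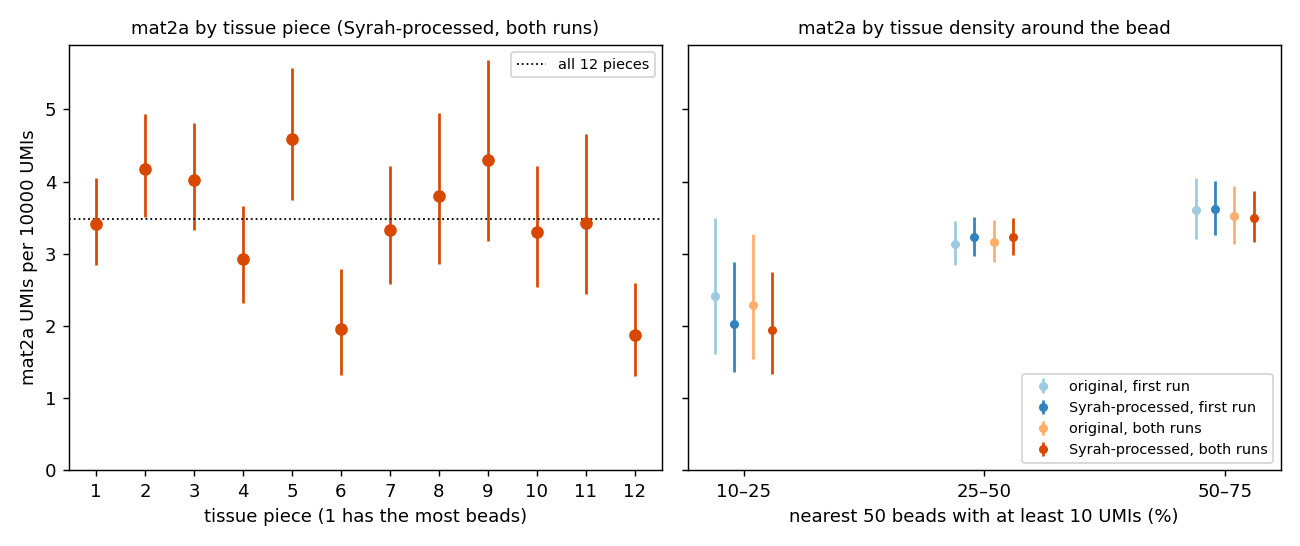
Level of mat2a in UMIs per 10000 UMIs in each of the 12 tissue pieces (left, Syrah-processed table of both runs, dotted line at their joint level of 3.47) and by the percentage of the 50 nearest beads that hold at least 10 UMIs in that table (right, 4 tables); bars are exact 95% Poisson intervals. Pieces 6 and 12 lie lowest at 1.95 and 1.87, and of the 3 density classes drawn the sparsest, 10 to 25%, is lowest in every table. Beads under 10% and at 75% and over are not drawn. Under 10% the level was above that at 10 to 25% in all 4 tables, from 2 to 8 mat2a UMIs each. In the Syrah-processed table of both runs it was 3.69 (0.447 to 13.3).

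Syrah processing added mat2a UMIs in about the proportion that it added UMIs of other genes. From the original to the Syrah-processed table of both runs its UMIs rose from 861 to 1077, a ratio of 1.251 (1.14 to 1.37, an interval that treats tables with shared reads as independent), where the UMIs of all genes rose 1.26-fold and the median of 558 genes with at least 500 UMIs was 1.26. Positive beads of any depth went from 677 to 844. Of these, 645 were positive in both tables, 32 were lost and 199 were gained. Among the gained beads 142 had held, in the original table, less than 10% of the UMIs they held after processing. The second run moved mat2a less, from 1011 to 1077 UMIs in the Syrah-processed tables, a ratio of 1.07 (0.977 to 1.16) beside 1.08 for all UMIs. It added 29 positive beads and lost none.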

How the data were processed

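UMIs were counted by the authors with the WARP Slide-seqV2 pipeline from reads as sequenced and from reads whose bead barcode was corrected with Syrah. The deposited counts are whole UMIs per gene and barcode, not normalized, in 4 tables with 20958 to 22150 genes. The methods name the schMedS3 genome, while the tables carry SMED30 identifiers, which the study's marker list pairs with mat2a and piwi-1 alone. Bead positions were deposited in a unit that is not stated.

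Of 83348 barcodes, those differing by 1 base and lying less than 10 units apart were joined, which gave 67975 beads. Beads with at least 50 UMIs were used. Levels are UMIs per 10000 UMIs with exact Poisson intervals, shares have exact binomial (Clopper-Pearson) intervals, and ratios of levels have exact conditional Poisson intervals. PCR copies are collapsed by the UMI, and intervals cover counting error only. Thinning to 100 UMIs used the hypergeometric expectation. With 1 library there was no test and no p-value. Named genes were mat2a, piwi-1, and the 2 listed intestine genes and the 2 other genes with the highest and with the lowest ratio around mat2a. The gene, lists and rules were chosen with earlier results of these data known. Tissue pieces, quintiles, the density classes of 50% and over against under 25%, and neighbours without mat2a were added after the data were seen. Functions were tested on simulated data. Python 3.11.15, numpy 2.4.6, scipy 1.17.1 and matplotlib 3.10.9 were used.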

Additional observations from a re-analysis of the deposited data

How the results depend on the processing

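The density ratio that rests on 2 beads and the count of listed genes at a ratio of 1.5, which no gene reached, were left out. Of 46 alternative settings, 38 left the value within its counting interval or within 1.5 times of a ratio, and 0 turned a direction. This count is lenient. Only the neighbourhood, density and quintile ratios could turn, and any neighbourhood ratio above 1 and up to 1.5 times the main value passed. Keeping barcodes apart left the share at 9.11% and the level at 3.26. The study describes Syrah as already redirecting duplicated barcodes to a single bead. For these values the setting was therefore no check, although both are counted among the 38. The share of positive beads was 5.54%, 7.20% and 11.9% at minimums of 10, 25 and 100 UMIs per bead and 9.83% on beads with at least 25% tissue around (median depth changes with each minimum by construction, and the cause for the last was not tested), while the level stayed between 3.22 and 3.33 per 10000 UMIs. The share of positive beads with another nearby was 30.1% within 25 units and 94.4% within 100 units. The neighbourhood ratio of mat2a ran from 1.21 to 1.31 over its alternatives. Of the 13 listed intestine genes, 9 passed a ratio 25% above 1 within 50 units, against 9.71% of the other genes with at least 500 UMIs. Within 25 units 1 of the 13 passed a ratio of 1.5. The share of all genes that did so was not counted, and their 95th percentile was 1.36. The level at 50% and over against under 25% tissue density was 1.05 with each barcode a separate bead, and the highest over the lowest quintile of intestine genes was 4.97 with only neighbours without mat2a; the cause was not tested in either. The contrast of 75% density gave no value with barcodes kept apart, with 100 nearest beads or with tissue set at 50 UMIs, because no bead then reached 75%. No paired analysis was possible because the series has 1 library, whose tables share reads. Levels that rest on few UMIs, such as 34 in sparse tissue and 38 in the lowest quintile, are the least precise.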
